A study of Macaca mulatta with 12 samples.

Results

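The miR-15, miR-16, miR-195 and miR-497 miRNAs were examined across 12 small RNA profiles of the rhesus macaque, Macaca mulatta. The 6 pre-miRNAs mml-mir-15a, mml-mir-15b, mml-mir-16-1, mml-mir-16-2, mml-mir-195 and mml-mir-497 were chosen by name from the study's annotation, in which 832 pre-miRNAs were readable. They carry 11 different mature miRNAs, because mml-mir-16-1 and mml-mir-16-2 give the same mml-miR-16-5p, which was counted once. Of these, 9 had at least 1 assigned read and 7 passed the filter on low values. In the whole series 371 mature miRNAs of the readable annotation passed it. The study lists more pre-miRNAs than the 832, so that all miRNAs and any mature miRNA below mean those of the readable part. All profiles came from untreated wild-type macaques, labelled as 36 months old, and each profile was 1 library of total tissue. There were 2 numbered profiles each of muscle, kidney, large intestine and small intestine, while lung, liver, occipital lobe and spinal cord had 1 profile each. The study used 2 animals and the labels do not give the animal of a profile, so that p-values measure only the spread between these profiles, which may in part be technical.

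A miRNA directs an Argonaute protein to mRNAs mainly through its seed, the bases 2 to 8 counted from the 5' end, and miRNAs with the same seed are counted as a family because their targets overlap. The miR-15 and miR-16 family is known for lowering the levels of cyclins and other regulators of the cell cycle, and the genes of miR-15a and miR-16-1 lie in a region that is often lost in chronic lymphocytic leukaemia. In the mammalian heart, miR-195 is known for its rise after birth, when muscle cells leave the cell cycle. A pre-miRNA hairpin is cut into a 5p and a 3p strand, and usually 1 of the strands is kept.

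The mature 5p sequences of the annotation are shown to compare their seeds, which are in capitals.
mml-miR-15a-5p: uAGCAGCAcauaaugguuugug
mml-miR-15b-5p: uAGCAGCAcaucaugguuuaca
mml-miR-16-5p: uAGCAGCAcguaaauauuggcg
mml-miR-195-5p: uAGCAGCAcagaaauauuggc
mml-miR-497-5p: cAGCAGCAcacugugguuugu
All 5 share 1 seed, and behind it they differ to different extents. From position 1, mml-miR-16-5p and mml-miR-195-5p have the same base at 19 of 21 positions, and mml-miR-15a-5p and mml-miR-15b-5p at 18 of 22. By contrast, mml-miR-16-5p and mml-miR-497-5p have the same base at only 11 of 21 positions. Other pairs lie between, such as mml-miR-15a-5p and mml-miR-16-5p (16 of 22) and mml-miR-15b-5p and mml-miR-497-5p (15 of 21).

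The 3p strands are less alike, and they are shown because only they tell most reads of the 2 miR-16 genes apart. The seed is again in capitals.
mml-miR-16-1-3p: cCAGUAUUaacugugcugcugaa
mml-miR-16-2-3p: cCAAUAUUacugugcugcuuca
mml-miR-195-3p: cCAAUAUUggcugugcugcucca
mml-miR-15b-3p: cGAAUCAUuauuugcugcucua
The annotated mml-miR-16-2-3p and mml-miR-195-3p share a seed, whereas mml-miR-16-1-3p has another. In the hairpins of mml-mir-16-1 and mml-mir-16-2, shown here with both mature strands in capitals, the 5p strand is identical and the loop and flanks differ.
mml-mir-16-1: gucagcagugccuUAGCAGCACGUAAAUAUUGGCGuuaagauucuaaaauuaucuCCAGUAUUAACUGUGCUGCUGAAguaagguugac
mml-mir-16-2: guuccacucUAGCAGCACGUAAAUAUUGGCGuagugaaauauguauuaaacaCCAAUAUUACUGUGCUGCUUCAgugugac
The genes lie in pairs. In the RefSeq annotation of the assembly T2T-MMU8v2.0, the nearest miRNA gene of MIR15A is MIR16-1 and that of MIR15B is MIR16-2, with the latter pair inside SMC4. MIR195 and MIR497 form the third pair. That assembly is not the build of the study, so no positions are given.

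The 12 profiles held between 22118095 and 25579064 valid reads, and levels are given as reads per 10000000 valid reads (RPTM), in which 1 read stood for 0.391 to 0.452 RPTM. Reads assigned to any mature miRNA made up 35.9% (liver) to 68.4% (kidney 1) of the valid reads. Levels of different miRNAs are numbers of reads, and the ligation of adapters can favour some sequences over others. Neural tissue stood apart in scale: the TMM factors, which edgeR uses to set the profiles on 1 scale, were 2.26 in occipital lobe and 2.49 in spinal cord and between 0.623 and 1.37 in the other 10 profiles. Levels are described in RPTM first, and where the TMM scale (log2 CPM, counts scaled to the TMM-corrected library size) gave another order of tissues this is said at the end of the paragraph. The labels of muscle, neural tissue and liver were checked with marker miRNAs. The skeletal muscle markers summed to 130761 and 145354 RPTM in the muscle profiles and to at most 917 in the others, and those of neurons to 265452 and 395069 in spinal cord and occipital lobe and to at most 995 in the others. The liver marker summed to 7739 RPTM in liver and to at most 4.37 elsewhere. A list for intestine and kidney epithelium did not single out its tissues. It was highest in small intestine, at 1897938 and 1462055 RPTM. It summed to 256218 and 278827 RPTM in kidney and 984723 and 446289 in large intestine, but to 1209627 in liver. Lung had no list of its own.

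As shown in the plot of levels by profile, mml-miR-16-5p was the most abundant member in every profile. Its level was 2434 and 2127 RPTM in the kidney profiles, 2753 in both large intestine profiles, 3788 and 2875 in small intestine, 3943 in liver and 5563 in spinal cord. It reached 7858 RPTM in occipital lobe, 10549 in lung, and 9506 and 10717 in the muscle profiles. On this scale the muscle profiles and lung lay above all others and the kidney profiles below all others. The order of the tissue means was kidney, large intestine, small intestine, liver, spinal cord, occipital lobe, muscle and lung, and the steps between the first 4 of these, and between the last 3, were within the largest difference between profiles of 1 tissue (0.398 on the log2 scale). On the TMM scale muscle (9.98 and 10.12 log2 CPM) and lung (9.59) were again the highest, but spinal cord (7.81) lay below both kidney profiles (8.19 and 8.42).

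**Figure D1:**
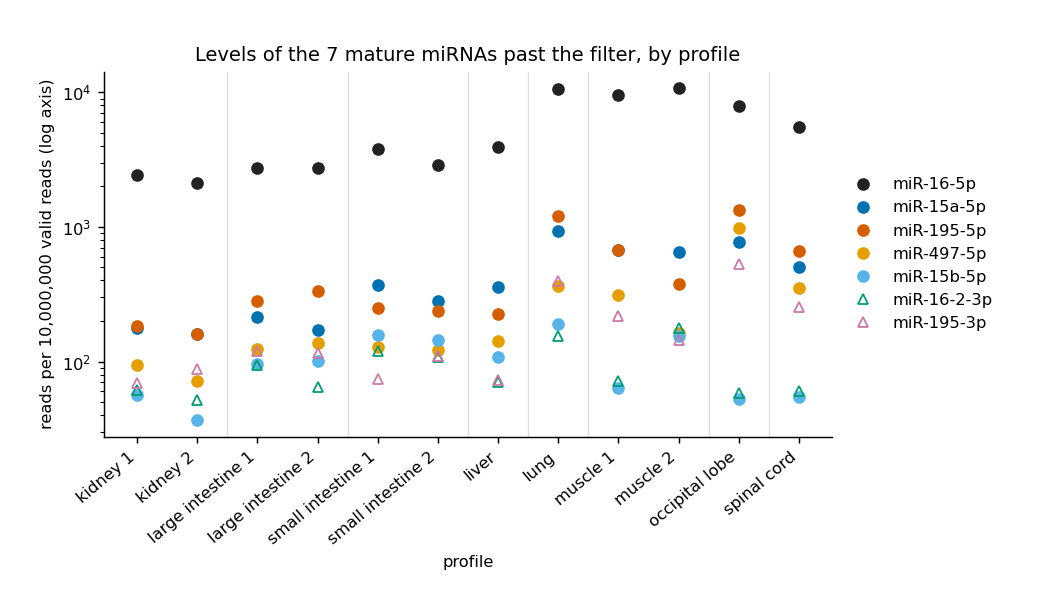
Levels of the 7 mature miRNAs past the filter in each of the 12 profiles, in reads per 10,000,000 valid reads on a log axis; filled circles are 5p strands, open triangles 3p strands, and each point is 1 profile. mml-miR-16-5p is highest everywhere, from 2127 in kidney 2 to 10717 in muscle 2, and mml-miR-497-5p peaks in occipital lobe at 977.

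The gene of mml-miR-15a lies beside that of mml-miR-16-1, which is only 1 of the sources of mml-miR-16-5p. The order of tissues of mml-miR-15a-5p was similar to that of mml-miR-16-5p. mml-miR-15a-5p was measured at 177 and 160 RPTM in kidney, 215 and 172 in large intestine, 369.5 and 281 in small intestine and 356 in liver. Higher levels were found in spinal cord (506), muscle (678 and 651), occipital lobe (778) and lung (939). In RPTM the 6 intestinal and kidney profiles with liver did not overlap with the other 5, and among the 4 highest tissues no step exceeded the spread within a tissue, which was at most 0.393 on the log2 scale. On the TMM scale these groups overlapped, as spinal cord was the lowest profile (4.35 log2 CPM) and both small intestine profiles (5.51 and 5.38) lay above occipital lobe (5.11).

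In contrast, mml-miR-15b-5p was the least abundant 5p member in all profiles except those of small intestine, where mml-miR-497-5p was lower. Its level was 56.7 and 36.8 RPTM in kidney, 53.0 in occipital lobe and 54.4 in spinal cord. The large intestine profiles had 95.4 and 101 RPTM, liver 107, and the small intestine profiles 157 and 144. It was highest in lung (189), while the muscle profiles held 63.8 and 156. These muscle profiles differed by 1.29 on the log2 scale, more than any step between neighbouring tissues, so that the order of tissues is not resolved for this member. On the TMM scale the small intestine profiles were highest (4.27 and 4.42 log2 CPM), above lung (3.80), and the neural profiles lowest (1.27 and 1.18).

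The members beside each other in the MIR195 and MIR497 pair were highest in occipital lobe when given in RPTM. For mml-miR-195-5p, the levels were 184 and 161 RPTM in kidney, 226 in liver, 249 and 236 in small intestine, and 283 and 332 in large intestine. The muscle profiles had 674 and 377 RPTM, spinal cord 662, lung 1201 and occipital lobe 1333. For mml-miR-497-5p, occipital lobe (977 RPTM) was followed by lung (366), spinal cord (349) and the muscle profiles (312 and 162). All other profiles were between 71.1 and 142 RPTM. The step from lung to occipital lobe was 1.42 on the log2 scale for mml-miR-497-5p, larger than its largest difference within a tissue (0.943), whereas for mml-miR-195-5p it was 0.15. On the TMM scale occipital lobe was still highest for mml-miR-497-5p (5.43 log2 CPM), but for mml-miR-195-5p lung (6.46) and muscle 1 (6.17) lay above occipital lobe (5.88).

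Together the 5 seed-sharing miRNAs took 2556 (kidney 2) to 13244 RPTM (lung), a 5.18-fold range. As shares of their own reads do not depend on the scale of a profile, the make-up of these reads was compared next. mml-miR-16-5p held 71.4% (occipital lobe) to 88.8% (muscle 2) of them, with a median of 80.2% over the 12 profiles. The medians were 6.67% for mml-miR-15a-5p, 6.38% for mml-miR-195-5p, 3.08% for mml-miR-497-5p and 1.68% for mml-miR-15b-5p. The share of mml-miR-15a-5p lay between 4.93% and 7.88%, and that of mml-miR-15b-5p between 0.482% and 3.94%. mml-miR-195-5p and mml-miR-497-5p together held 21% in occipital lobe (Wilson 95% interval 20.5 to 21.5) and 14.2% in spinal cord (13.7 to 14.7), against 4.47% and 8.77% in muscle and 7.71% to 13.4% in the other 8 profiles. These intervals cover counting error only, here and below, since reads made by PCR without molecular identifiers are not independent molecules.

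The ratio of mml-miR-15a-5p to mml-miR-15b-5p differed widely between the profiles. There were 14.7 reads of mml-miR-15a-5p for each read of mml-miR-15b-5p in occipital lobe, 10.6 in muscle 1 and 9.31 in spinal cord. The ratio was 4.96 in lung, 4.18 in muscle 2, 3.13 and 4.36 in kidney and 3.32 in liver. In the 4 intestinal profiles it was between 1.70 and 2.36, below all others.

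**Figure D2:**
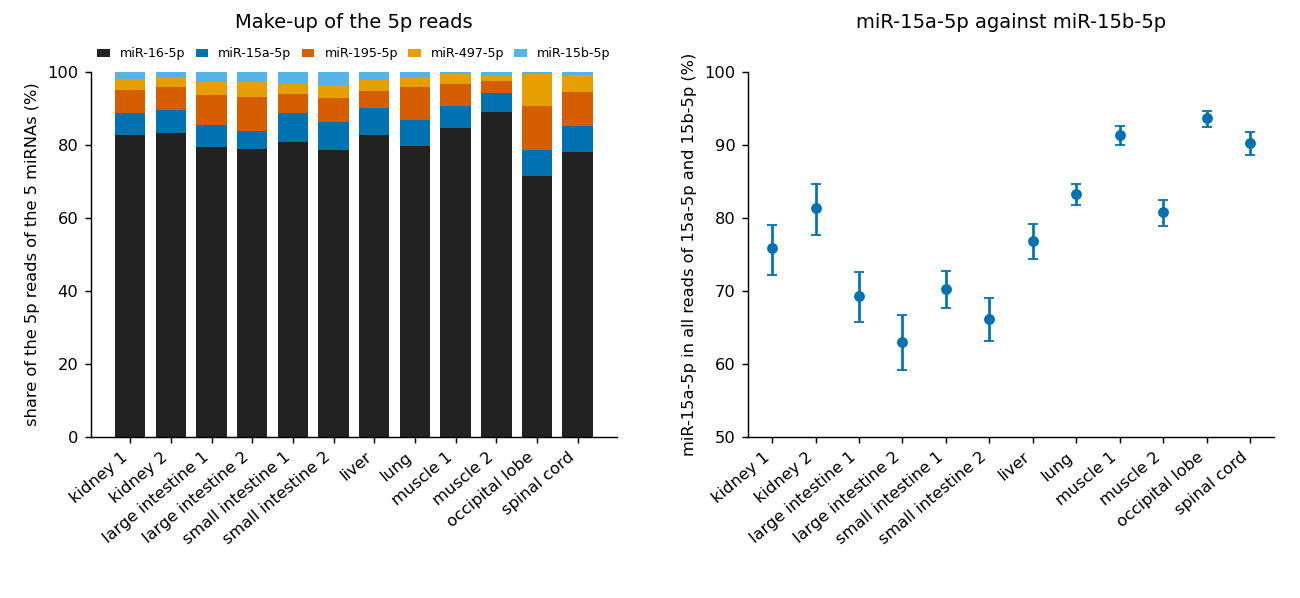
Left, the share (%) of each of the 5 seed-sharing miRNAs in their summed 5p reads, as stacked bars for the 12 profiles. Right, the share (%) of mml-miR-15a-5p in the reads of mml-miR-15a-5p and mml-miR-15b-5p, with Wilson 95% intervals as error bars; the axis starts at 50%. The share on the right is lowest in large intestine 2 (63.0%) and highest in occipital lobe (93.6%).

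Whether such measures differed between tissues by more than between profiles of 1 tissue was tested on the 4 tissues with 2 profiles. In 18 scale-free measures of the family (ratios, shares and 3' end measures), the 4 real pairs of profiles were set among all 105 ways to pair the 8 profiles by a one-sided exact permutation test. None of the 18 passed after Benjamini-Hochberg adjustment, with a lowest adjusted p of 0.30. The smallest unadjusted p the design allows is 0.00952, and 1 measure alone at this value could not pass after adjustment over 18. Several measures would have had to reach it together, so the test cannot show that the measures are alike between tissues. Unadjusted, the share of mml-miR-16-5p (exact permutation p = 0.0286) and the ratio of mml-miR-15a-5p to mml-miR-15b-5p (exact permutation p = 0.0476) came lowest. The differences of occipital lobe and spinal cord stand outside this test, as these tissues had 1 profile each.

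The levels were then compared between tissues with edgeR's quasi-likelihood test over all 371 miRNAs, with 8 tissues as groups and Benjamini-Hochberg adjustment over all of them. For a difference between any tissues, 6 of the 7 members passed at an adjusted p under 0.05, while 84.4% of all miRNAs did. The lowest adjusted p was that of mml-miR-16-5p (0.00107, edgeR), and mml-miR-195-3p did not pass (0.0770, edgeR). When scaled to valid reads, mml-miR-195-3p passed (0.000987, edgeR) and mml-miR-16-2-3p did not (0.184, edgeR). mml-miR-195-3p also passed with identical reads alone (0.0263, edgeR) and with DESeq2 (0.0344). With occipital lobe and spinal cord pooled into 1 group, mml-miR-195-5p (0.0650, edgeR) and mml-miR-497-5p (0.298, edgeR) did not pass. mml-miR-497-5p passed at 0.0380 but in only 2 of the 8 edgeR fits that left out 1 profile. In the same fits mml-miR-195-5p was lost without kidney replicate 1 (adjusted p = 0.0573, edgeR), and mml-miR-16-2-3p without small intestine replicate 1 (0.0502) or 2 (0.0530). In these bulk samples, more cells of a type and more RNA per cell cannot be told apart. The contrasts below set 1 tissue against the mean of the other 7, differences are on the log2 scale of TMM-normalized counts, and liver, lung and the neural profiles are assumed to vary like the tissues with 2 profiles.

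In muscle, 3 members were higher and none lower, where 29.6% of all miRNAs were called higher and 18.6% lower (48.2% in all). mml-miR-16-5p was higher by 1.46 ± 0.20 (SE; adjusted p = 0.000159, edgeR) and kept this call under all 16 alternatives, with values between 1.12 and 1.53. mml-miR-15a-5p was higher by 1.06 ± 0.23 (adjusted p = 0.00318, edgeR), a call that was lost only when no filter on low values was used (0.84, adjusted p = 0.0569). mml-miR-16-2-3p was higher by 0.94 ± 0.33 (adjusted p = 0.0378, edgeR), but its profiles had 72.2 and 177 RPTM in muscle. Without muscle replicate 2 its difference was 0.18 (adjusted p = 0.765, edgeR), and without kidney replicate 1 or 2, large intestine replicate 2 or small intestine replicate 1 or 2 its adjusted p was between 0.0553 and 0.0689. The call was also lost with valid reads as scale (0.65, adjusted p = 0.168), with DESeq2 (0.0675), without a filter (0.198) and with 7 groups (0.142), and the direction turned to -0.21 in the 8 numbered profiles alone. The other members in muscle were at 0.61 (mml-miR-15b-5p), 0.56 (mml-miR-195-5p), 0.42 (mml-miR-497-5p) and 0.43 (mml-miR-195-3p) and did not pass.

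Lung had 1 profile, and 3 members were higher there, where 16.2% of all miRNAs were called higher and 13.2% lower (29.4% in all). These were mml-miR-195-5p (by 1.32 ± 0.34, adjusted p = 0.0139), mml-miR-15a-5p (by 1.04 ± 0.30, adjusted p = 0.0221) and mml-miR-16-5p (by 0.94 ± 0.27, adjusted p = 0.0223), all with edgeR. All 3 lost the call when occipital lobe and spinal cord were pooled into 1 group, with adjusted p-values of 0.0576, 0.0837 and 0.0887. The difference of mml-miR-15a-5p was 0.21 (adjusted p = 0.830, edgeR) when only reads identical to the annotated sequence were counted, and without a filter on low values mml-miR-15a-5p and mml-miR-16-5p did not pass (0.130 and 0.150).

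Blood is present in whole tissues, and miRNAs of red blood cells moved with these results. The red blood cell markers were the 4 mature miRNAs of mml-mir-451, mml-mir-144 and mml-mir-486, all of them detected. They summed to 451994 and 822508 RPTM in muscle, 266761 in lung, 277470 in occipital lobe and 172211 in spinal cord. They summed to 9408 to 120137 RPTM in the remaining 7 profiles. On the log2 scale of RPTM, this sum had a Pearson r of 0.82 with mml-miR-16-5p and 0.75 with mml-miR-15a-5p over the 12 profiles. Its r was 0.57 with mml-miR-195-5p, 0.55 with mml-miR-497-5p and -0.14 with mml-miR-15b-5p. The points share their libraries and scaling, and the part of red blood cells in these levels was not tested. Whether the high sum in muscle came from blood alone was not tested either. The only endothelial marker, 1 mature miRNA of mml-mir-126, was also highest in lung, at 9051 RPTM, and its r with mml-miR-16-5p was 0.60.

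In the intestines, mml-miR-15b-5p was the member with higher levels. It was higher by 1.55 ± 0.31 in small intestine (adjusted p = 0.00311, edgeR) and by 0.98 ± 0.32 in large intestine (adjusted p = 0.0428, edgeR). mml-miR-16-2-3p, the 3p strand of the neighbouring gene, was higher in small intestine by 1.21 ± 0.33 (adjusted p = 0.0157, edgeR). These were 2 of 7 members in small intestine, where 18.6% of all miRNAs were called higher (36.4% in all), and 1 of 7 in large intestine, where 17.3% were called higher (28.8% in all). When scaled to valid reads in place of TMM factors, the differences were 0.84 (adjusted p = 0.0697), 0.14 (0.839) and 0.50 (0.293) in the same order, and none passed with edgeR. On that scale other members were lower, namely mml-miR-16-5p (-0.67), mml-miR-195-5p (-1.01), mml-miR-497-5p (-0.94) and mml-miR-195-3p (-0.99) in small intestine and mml-miR-15a-5p (-1.27) and mml-miR-16-5p (-0.98) in large intestine, where the medians of all miRNAs were -1.02 and -1.08. The large intestine call was also lost in 6 of 8 edgeR fits without 1 profile, with adjusted p-values up to 0.220. These were the fits without either profile of kidney, large intestine or small intestine, whereas 2 members were called in large intestine without muscle replicate 2. mml-miR-16-2-3p in small intestine was lost without small intestine replicate 1 (0.0964) or 2 (0.115).

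The 6 of 6 detected white blood cell marker miRNAs summed to 1761 to 3203 RPTM in the intestines, 10575 in lung, 1386 in liver and 2081 and 3033 in muscle. In kidney and the neural profiles the sum was only 495 to 1074 RPTM. Its Pearson r with mml-miR-15b-5p was 0.88 over the 12 profiles and with mml-miR-16-5p 0.38, and the part of white blood cells was not tested.

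In neural tissue, the mean of occipital lobe and spinal cord was set against the mean of the other 6 tissues, and here the scale mattered most. The median of all miRNAs was 0.43 on the TMM scale and 1.84 when scaled to valid reads, and 40.2% of all miRNAs were called higher and 30.7% lower (70.9% in all). On the TMM scale 4 of the 7 members were lower and none higher. mml-miR-15b-5p was lower, at -2.40 ± 0.41 (SE) on the log2 scale (adjusted p = 0.000358, edgeR), and stayed lower, at -1.0, when scaled to valid reads (adjusted p = 0.0407, edgeR). mml-miR-16-2-3p was at -2.06 ± 0.41 (adjusted p = 0.00103, edgeR) and at -0.66 when scaled to valid reads, which did not pass (adjusted p = 0.148, edgeR). mml-miR-16-5p was lower on the TMM scale, at -0.87 ± 0.23 (adjusted p = 0.00675, edgeR), but higher by 0.54 when scaled to valid reads (adjusted p = 0.0487, edgeR). The same held for mml-miR-15a-5p, at -0.63 ± 0.26 with TMM (adjusted p = 0.0480, edgeR) and higher by 0.78 with valid reads (adjusted p = 0.0178, edgeR). The TMM call of mml-miR-15a-5p was lost in 6 of 8 edgeR fits without 1 profile, all except those without muscle replicate 2 and small intestine replicate 2, with adjusted p-values of 0.0503 to 0.0760. It was also lost without a filter on low values (0.343), as was that of mml-miR-16-5p (0.0757). With occipital lobe and spinal cord pooled into 1 group, the call of mml-miR-15a-5p was lost as well. mml-miR-497-5p (0.46) and mml-miR-195-5p (0.01) did not differ detectably on the TMM scale but were higher by 1.87 and 1.42 when scaled to valid reads (adjusted p = 0.000112 and 0.000557, edgeR). In either scale mml-miR-15b-5p was lower against all miRNAs, and the values of mml-miR-497-5p were near the median of all miRNAs.

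In kidney and liver, edgeR called none of the 7 members, where 27.5% of all miRNAs in kidney (18.6% higher and 8.89% lower) and 34.5% in liver (18.1% higher and 16.4% lower) were called. At an unadjusted p under 0.05 there were 4 members in kidney and 2 in liver, and DESeq2 called 3 and 2 members. The differences in kidney were between -0.88 (mml-miR-497-5p) and 0.10 (mml-miR-16-2-3p) on the TMM scale, with a median over the members of -0.53 against -0.06 for all miRNAs. When scaled to valid reads, 5 members were lower in kidney with edgeR, while the median of all miRNAs was itself at -0.84. Without muscle replicate 2, edgeR called 2 members in kidney and 1 in liver.

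The levels of neighbouring genes were compared across the 12 profiles. mml-miR-15b-5p followed mml-miR-16-2-3p with a Pearson r of 0.95 on the log2 scale of normalized counts, which was 0.82 over the 10 profiles without neural tissue. mml-miR-15a-5p followed mml-miR-16-5p (r = 0.94, and 0.93 without neural tissue), which both miR-16 genes give and which is not the product of MIR16-1 alone. mml-miR-195-5p followed mml-miR-497-5p (r = 0.88, and 0.94 without neural tissue) and its own 3p strand (r = 0.93). Across the pairs, r was 0.44 between mml-miR-15a-5p and mml-miR-15b-5p. It was 0.47 between mml-miR-16-5p and mml-miR-15b-5p, whose neighbour MIR16-2 also gives mml-miR-16-5p. Other members that are not neighbours gave higher Pearson values. They were 0.65 between mml-miR-15a-5p and mml-miR-195-5p, 0.62 between mml-miR-16-5p and mml-miR-195-5p, and 0.52 between mml-miR-15a-5p and mml-miR-497-5p. On the RPTM scale they were 0.85, 0.81 and 0.82. By Spearman's rank correlation the order was the other way. It was 0.73 between mml-miR-16-5p and mml-miR-15b-5p, against 0.58, 0.59 and 0.57 for the pairs that are not neighbours. These values describe the 12 profiles, which share their libraries and the scaling between them. On the RPTM scale r was 0.89 for mml-miR-15b-5p with mml-miR-16-2-3p, 0.96 for mml-miR-15a-5p with mml-miR-16-5p and 0.95 for mml-miR-195-5p with mml-miR-497-5p.

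**Figure D3:**
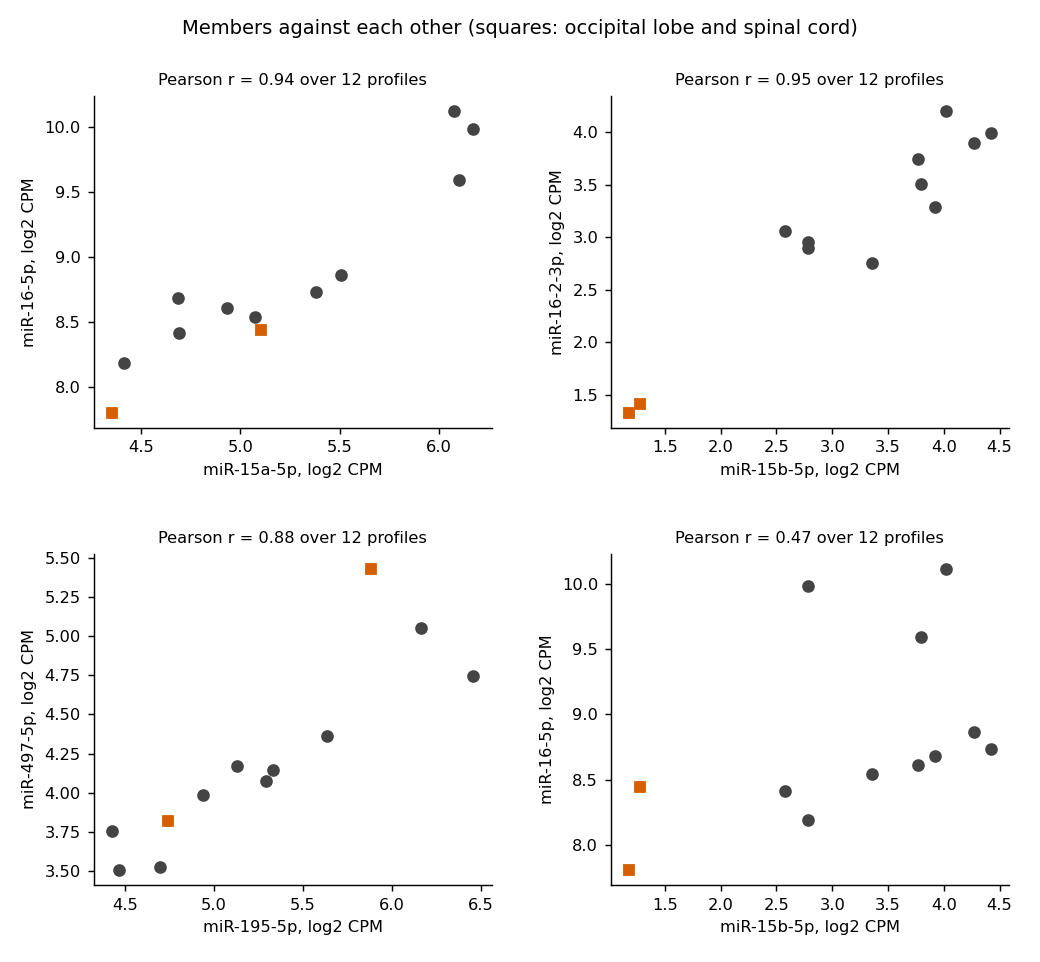
Each panel plots 2 members against each other in log2 of TMM-normalized CPM; each point is 1 of the 12 profiles, and squares are occipital lobe and spinal cord. The points rise together for mml-miR-15a-5p with mml-miR-16-5p (Pearson r = 0.94), mml-miR-15b-5p with mml-miR-16-2-3p (0.95) and mml-miR-195-5p with mml-miR-497-5p (0.88). They scatter more for mml-miR-15b-5p with mml-miR-16-5p (0.47, with a Spearman rank correlation of 0.73).

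Outside the family, the miRNAs with the most similar pattern were found by Pearson's r over the 12 profiles among 362 others past the filter. For mml-miR-15b-5p they were mml-miR-142-5p (r = 0.92), mml-miR-17-3p (0.92) and mml-miR-145-3p (0.91). For mml-miR-16-5p they were mml-miR-24-1-3p (0.87), mml-miR-29a-3p (0.86) and mml-miR-106b-3p (0.83), and for mml-miR-15a-5p mml-miR-339-5p (0.80), mml-miR-197-2-3p (0.79) and mml-miR-106b-3p (0.78). For mml-miR-497-5p the values were 0.86 (mml-miR-1255a-3p), 0.79 (mml-miR-361-3p) and 0.74 (mml-miR-101-1-5p). For mml-miR-195-5p they were 0.77 (mml-miR-1255a-3p), 0.75 (mml-miR-197-2-3p) and 0.71 (mml-miR-339-5p). These values are a description without a test.

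The reads that tell the 2 miR-16 genes apart came mostly from mml-mir-16-2. In the 12 profiles together, 2581 reads were assigned to mml-miR-16-2-3p and 21 to mml-miR-16-1-3p, which is 0.807% (Wilson 95% interval 0.528 to 1.23). In each of the 12 profiles mml-miR-16-1-3p had fewer reads, with 0 to 4 per profile, against 125 to 406 of mml-miR-16-2-3p. The share of mml-miR-16-1-3p was highest in kidney 1 (2.47%, interval 0.964 to 6.18), and the intervals of all other profiles overlapped with its interval. As the strands are kept to different extents, these 3p reads do not give the share of each gene in mml-miR-16-5p.

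The 5p strand can be told apart only where a read runs past the mature ends. Reads of mml-miR-16-5p with 1 more 5' base numbered 86 for mml-mir-16-2 and 0 for mml-mir-16-1, and a count of 0 allows a share of up to 3.49%. Reads at least 2 bases longer at the 3' end numbered 293 for mml-mir-16-2 and 144 for mml-mir-16-1, a share of 33.0% for the latter (Wilson 95% interval 28.7 to 37.5). The hairpins continue there with different bases, but an added tail of U or A would give the same letters, so that part of these reads may not come from the genome. They were few beside the 152674 reads of mml-miR-16-5p.

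The 5p strands had more reads than the 3p strands. Against 12439 reads of mml-miR-15a-5p, no read of mml-miR-15a-3p was found, and 45 of mml-miR-15b-3p stood against 2869 of mml-miR-15b-5p. The strands of mml-mir-195 were closest in number, with 5143 reads of mml-miR-195-3p and 13875 of mml-miR-195-5p. The level of mml-miR-195-3p followed that of the 5p strand, from 69.6 RPTM in kidney 1 to 528 in occipital lobe. mml-miR-16-2-3p was between 51.7 RPTM in kidney 2 and 177 in muscle 2, so that its highest level was 3.42 times the lowest.

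The ends of the reads were then examined for all reads that matched a mature miRNA and ended in at most 3 bases that do not match the hairpin, which are called a tail. Only reads whose first 15 bases match the hairpin were included, so that changed seed bases are not seen here. At the 5' end, 97.4% to 99.8% of these reads of the 5p members began at the annotated base, which places the seed as annotated. An exception was mml-miR-16-2-3p, of which 89.7% of the reads began 1 base upstream and 7.89% at the annotated base. Its most frequent read is shown with the bases 2 to 8 of the read in capitals.
mml-miR-16-2-3p, most frequent read: aCCAAUAUuacugugcugcuu
mml-miR-195-3p, most frequent read: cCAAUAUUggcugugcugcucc
By the reads, the seeds of these strands are ccaauau and caauauu, and thus not the same. The share that began 1 base upstream was between 84.5% and 95.8% in the 12 profiles.

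At the 3' end, the most similar 5p sequences did not behave alike. mml-miR-16-5p ended at the annotated base in 86.1% of the reads and mml-miR-15b-5p in 75.5%. mml-miR-15a-5p did so in only 9.29%, and 60.7% of its reads ended 2 bases earlier. This share was between 45.1% and 74.3% in the 12 profiles, against 0% to 4.52% for mml-miR-15b-5p, so that the profiles of these strands did not overlap. Only 8.34% of the assigned reads of mml-miR-15a-5p were identical to the annotated sequence, and 91.0% were for mml-miR-16-5p. The most frequent reads are shown for comparison, with the seed in capitals.
mml-miR-15a-5p, most frequent read: uAGCAGCAcauaaugguuug
mml-miR-15b-5p, most frequent read: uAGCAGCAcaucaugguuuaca
The reads of mml-miR-195-5p and mml-miR-497-5p reached further. They ended at the annotated base in 50.7% and 45.2% of reads, and 1 base later in 28.5% and 29.2%. A mean 3' end over the reads was -1.52 bases relative to the annotated end for mml-miR-15a-5p, -0.34 for mml-miR-15b-5p, -0.16 for mml-miR-16-5p, -0.05 for mml-miR-195-5p and 0.10 for mml-miR-497-5p. Over 271 miRNAs with at least 1000 reads, the median of this mean was -0.49, with a 10th percentile of -1.52.

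**Figure D4:**
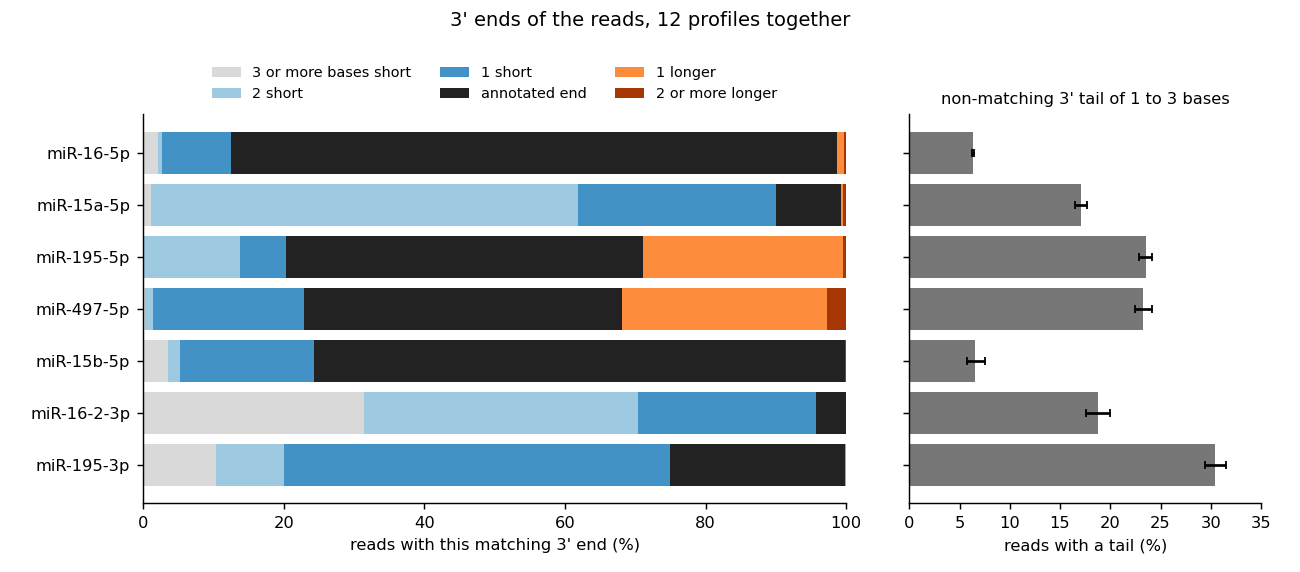
Left, for the 7 members past the filter, the share (%) of reads by the position of their last base that matches the hairpin, relative to the annotated 3' end, over all 12 profiles. Right, the share (%) of reads with a tail of 1 to 3 bases that do not match, with Wilson 95% intervals. mml-miR-15a-5p ends mostly 2 bases short (60.7%), and tails are rarest in mml-miR-16-5p (6.32%) and mml-miR-15b-5p (6.57%).

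A tail was found on 6.32% of the reads of mml-miR-16-5p (Wilson 95% interval 6.21 to 6.44) and on 6.57% of mml-miR-15b-5p (5.75 to 7.5). The shares were 17.0% for mml-miR-15a-5p, 23.5% for mml-miR-195-5p, 23.3% for mml-miR-497-5p, 18.8% for mml-miR-16-2-3p and 30.5% for mml-miR-195-3p. The median over the 271 miRNAs was 25.6%, and their 10th percentile of 9.14% lay above the shares of mml-miR-16-5p and mml-miR-15b-5p. The kind of tail differed between members. A single C was the most frequent tail of mml-miR-497-5p (17.2% of the reads), mml-miR-16-2-3p (13.2%) and mml-miR-15a-5p (8.64%). A single U was on 14.6% of the reads of mml-miR-195-3p, against 0.0826% to 1.15% in the 5p members. mml-miR-195-5p carried a tail of the bases AC in 13.7% of its reads, and 13.6% of its reads ended 2 bases short of the annotated end. These shares also differed between profiles of 1 tissue. The C tail of mml-miR-497-5p was on 21.1% and 7.89% of reads in large intestine, and the AC tail of mml-miR-195-5p on 21.5% and 5.52%. A tail of this kind cannot be told apart from a changed base near the 3' end. None of the 10 measures of 3' ends and tails passed the permutation test over tissues named above, which 1 measure alone could not pass.

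Reads that differ from the hairpin at 1 base within the mature sequence were counted next. Of 283 such changes with at least 1 read in the members, 2 reached 1% of the reads at their position. Positions are counted from 1 at the 5' end of the mature sequence, with the base of the hairpin first. The most frequent was A2G in mml-miR-497-5p, the first base of the seed, with 530 changed reads against 6986 unchanged ones (7.05%). The changed form is shown with this base in capitals.
mml-miR-497-5p with A2G: cGgcagcacacugugguuugu
Its level was 11.5% in lung (108 of 943 reads, Wilson 95% interval 9.57 to 13.6), 10.9% in occipital lobe (273 of 2515, 9.70 to 12.1) and 11.6% in spinal cord (109 of 943, 9.67 to 13.8). In the other 9 profiles it was between 0% (kidney 2) and 3.04% (liver), with 40 of 3115 reads in all. The intervals of the first 3 profiles lay above those of all the others, of which the highest upper bound was 5.48% (large intestine 1). These 3 profiles are single libraries of their tissues, so that the spread between profiles is not known for them.

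**Figure D5:**
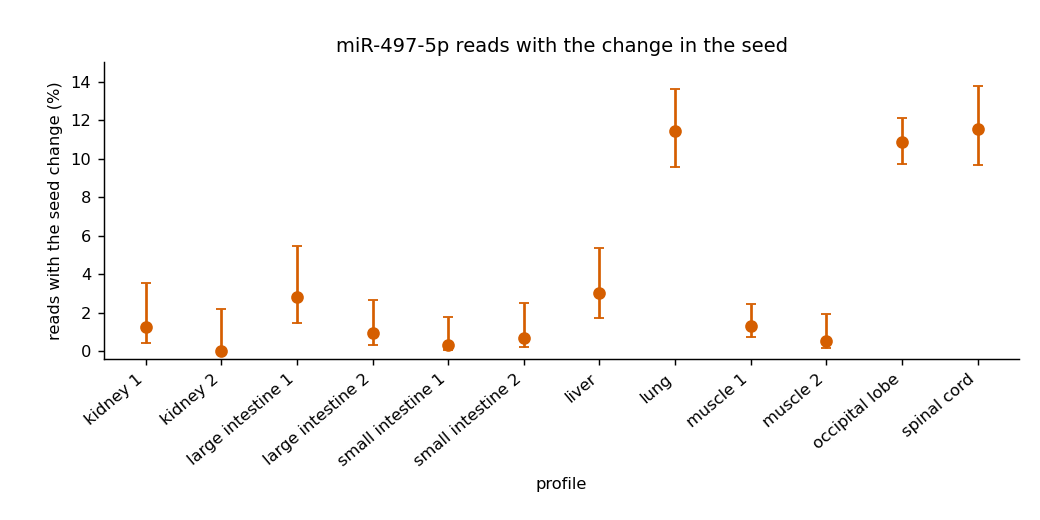
Share (%) of mml-miR-497-5p reads with A2G in each of the 12 profiles; points are 1 profile each and error bars are Wilson 95% intervals, which cover counting error only. Lung, occipital lobe and spinal cord lie between 10.9% and 11.6%, and the other 9 profiles at 3.04% or below.

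The same A2G change at the same position of the other 5p members gives the background. It was found in 0.244% of the reads of mml-miR-16-5p, 0.230% of mml-miR-195-5p, 0.169% of mml-miR-15a-5p and 0.105% of mml-miR-15b-5p. These shares were lower than the 7.05% of mml-miR-497-5p, although the seeds are identical. Changed reads were not counted in the levels above. The second change was C12A in mml-miR-15b-5p (63 reads, 2.15%), and position 12 is the first at which mml-miR-15a-5p and mml-miR-15b-5p differ, so that reads of mml-miR-15a-5p with a tail could be among them.

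No exact read of the annotated mml-miR-497-3p, which has 27 bases, was assigned within 2 bases of its ends. Reads of this strand were found with a different base at position 20. Of 139 reads that covered this position, 135 carried A20G (97.1%, Wilson 95% interval 92.8 to 98.9), and 4 had the annotated base. The most frequent read had 22 bases and is shown with that position in capitals.
mml-miR-497-3p, most frequent read: caaaccacacugugguguuGga
The change was seen in 11 of 12 profiles, with 52 of 52 reads in occipital lobe, 30 of 33 in lung and 21 of 21 in spinal cord, while muscle 2 had no read there. These reads were not counted by exact matching.

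The seed relatives were examined for comparison. mml-miR-424-5p has the same seed, and mml-miR-503-5p, whose gene is its neighbour, has a seed that ends in another base.
mml-miR-424-5p: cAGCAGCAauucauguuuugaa
mml-miR-503-5p: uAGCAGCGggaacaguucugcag
mml-miR-424-5p was highest in kidney (95.4 and 55.8 RPTM), liver (93.2) and lung (77.0) and lowest in occipital lobe (1.74). The muscle profiles had 21.7 and 30.5 RPTM, spinal cord 11.3 and the intestinal profiles 4.64 to 10.6. With edgeR it was higher in kidney by 3.0 ± 0.32 (adjusted p = 4.42e-05) and lower in neural tissue, at -4.13 ± 0.51 (adjusted p = 3.66e-05), and it kept these directions when scaled to valid reads (2.29 and -2.76). It was also higher in lung, by 2.02 ± 0.41 (adjusted p = 0.00436, edgeR), where 3 members were higher, and in liver, by 2.76 ± 0.39 (adjusted p = 0.000639, edgeR). The lung call was lost with identical reads alone (1.35, adjusted p = 0.139) and with 7 groups (1.47, 0.137). Its 3p strand mml-miR-424-3p was also called higher in kidney, liver and lung and lower in neural tissue. It was higher in muscle as well, by 1.58 ± 0.37 (adjusted p = 0.00570, edgeR). This muscle call was kept in 11 of 15 alternatives and was lost, among others, without muscle replicate 1 (1.36). The levels of mml-miR-424-3p were highest in kidney (65.3 and 55.8 RPTM), liver (62.5) and lung (62.5), with 46.3 and 35.7 in muscle. In kidney, none of the 5 members with this seed was higher. mml-miR-503-5p had 8 reads in all and was not compared.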

How the data were processed

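Small RNA was sequenced from 12 tissue profiles. The authors trimmed adapters, kept reads of at least 18 bases with high quality scores, and deposited for each profile the count of every unique sequence; these counts were used as deposited. Samples were grouped by tissue from the labels.

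Reads were assigned to a mature miRNA where they matched its pre-miRNA exactly with both ends within 2 bases of the annotated ends. Reads in 3' end measures could in addition carry a tail of up to 3 bases that do not match. Levels are per 10000000 valid reads. The profiles held 22118095 to 25579064 valid reads, and 1 read stood for 0.391 to 0.452 RPTM. Mature and hairpin sequences came from the study's annotation.

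miRNAs that averaged 5 RPTM or more, with an SD of 1 or more, were fitted with edgeR 4.0.16 (R 4.3.3, limma 3.58.1; quasi-likelihood, TMM factors, 8 tissues, Benjamini-Hochberg over 371 miRNAs). Ratios, shares and 3' end measures were compared by an exact permutation test (Python 3.11.15, numpy 2.4.6, pandas 2.3.3). Intervals are Wilson 95% intervals (scipy 1.17.1). The alternatives were identical reads only, whole arms (an overlap of at least 12 bases), valid reads as scale, DESeq2 1.42.0, no filter, 7 groups, a replicate block and leaving out each profile. The steps were tested on simulated data. The named miRNAs are all mature members, the seed relatives of mml-mir-424 and mml-mir-503, and the 3 most similar miRNAs per 5p member. Members and lists were chosen with earlier results of these data known.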

Additional observations from a re-analysis of the deposited data

Results flagged for a closer look

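Some reads of this family lie outside those counted in the levels. In mml-miR-497-5p, 530 reads carried A2G, of which 490 were in lung, occipital lobe and spinal cord (11.1% of 4401 reads) and 40 in the other 9 profiles (1.28% of 3115 reads). There was no control sample, and the same change in the other 5p members was at 0.105% to 0.244% of reads. In mml-miR-497-3p, 135 of 139 reads at position 20 carried A20G. The source of these bases was not tested.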

How the results depend on the processing

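Of the 13 member differences called, under 191 combinations with an alternative 141 kept direction and call, 46 lost the call and 4 reversed. The reversed values were -0.21 for mml-miR-16-2-3p in muscle (the 8 numbered profiles alone, with and without the replicate block), and 0.78 for mml-miR-15a-5p and 0.54 for mml-miR-16-5p in neural tissue (valid reads as scale). The cause was not tested, except that the 8 profiles compare a tissue with 3 others.

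The number of members called changed as follows. With the replicate block on 8 profiles, 3 differed between tissues (6 in all profiles), 3 were called in kidney (0), 0 in large intestine (1) and 1 in small intestine (2). The same 8 profiles without the block, an alternative chosen after seeing the data, gave 3, 3, 0 and 1. Identical reads alone gave 1 in kidney, 1 in small intestine, 0 members in large intestine and 1 in liver (0). Whole arms gave 0 in large intestine. Valid reads as scale called 5 members in kidney, 2 in large intestine and 4 in small intestine, all lower, and DESeq2 gave 3 in kidney and 2 in liver. Without a filter there were 1 in muscle (3), 2 in neural tissue (4) and 1 in lung (3). With 7 groups there were 1 in small intestine, 0 in large intestine and 0 in lung. Leaving out 1 profile gave 4 to 7 between tissues, 0 to 2 in kidney, 2 to 4 in muscle, 1 to 2 in small intestine, 0 to 2 in large intestine, 3 to 4 in neural tissue, 0 to 1 in liver and 3 to 4 in lung. None of the permutation measures passed where the alternative could be run: 8 ratios and shares with identical reads or whole arms, and 10 measures of 3' ends with shorter tails or a fixed 5' end. In these runs too, 1 measure alone could not have passed. All 18 were run without 1 profile, which leaves 3 pairs, too few to pass.

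Same-numbered profiles did not deviate together (6 correlations of -0.11 to 0.14, 1 above 0.1), so the numbers were not taken as pairs.

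Of all miRNAs, TMM against valid reads called 69 higher and 33 lower against 49 and 108 in kidney, 110 and 69 against 86 and 92 in muscle, 69 and 66 against 43 and 151 in small intestine, 64 and 43 against 35 and 155 in large intestine, and 149 and 114 against 235 and 72 in neural tissue. Counts over all miRNAs moved by over 1.5 times in some fits. Between tissues, 313 became 177 with the block and 180 without it on 8 profiles. In kidney, 102 became 157 with valid reads, 67 with identical reads and 67 without kidney replicate 2. In muscle, 179 became 118 with identical reads. In small intestine, 135 became 80 with identical reads, 82 with 7 groups, 73 and 71 on 8 profiles, and 58 and 86 without small intestine replicate 1 or 2. In large intestine, 107 became 190 with valid reads, 54 with 7 groups, 71 on 8 profiles without the block, and 57 and 70 without large intestine replicate 1 or 2. In liver, 128 became 85 with 7 groups, and in lung 109 became 59 with 7 groups and 66 with identical reads.

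Depth limits mml-miR-16-1-3p, which had 21 reads in all, where 1 read is 0.391 to 0.452 RPTM.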
